A study of Mus musculus with 16 samples.

Results

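Insulin-like growth factor signalling in the nerve stump beyond a crush injury was followed through 10 genes: the ligands Igf1 and Igf2, the receptors Igf1r and Igf2r, and the binding proteins Igfbp2, Igfbp3, Igfbp4, Igfbp5, Igfbp6 and Igfbp7. They were taken by name, with earlier results of these data known, from 18193 genes with a probe set that carried their symbol alone. Each gene was read from its brightest probe set, and all 10 lay among the 14545 genes bright enough to be tested. The study followed the sciatic nerve of C57BL/6 mice and of C57BL/6 OlaHsd-Wlds mice, called WldS here, at 4 times: uninjured (day 0) and 3, 7 and 14 days after a crush at mid-thigh of the left side. WldS is a spontaneous mutation that makes severed axons degenerate slowly, and setting it beside wild-type nerve asks which changes go with axon breakdown. All animals were 8 to 12 weeks old, with 56 per strain; the C57BL/6 mice were labelled wild type and the other strain was labelled as the mutant, with no substrain given for the former, so the allele and the substrain cannot be told apart. A segment of 4 mm, beginning 1 mm beyond the crush, was cut free of connective tissue, and segments of a group were pooled before RNA was extracted. Each of the 8 groups had 2 Affymetrix arrays, named as biological replicates in the labels, so n = 2 arrays per group throughout. Nothing further says that these came from separate pools or dissections.

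IGF1 and IGF2 are small secreted hormones related to insulin that promote survival, growth and differentiation. Both act through the IGF1 receptor, a tyrosine kinase, whereas the IGF2 receptor, which is also the cation-independent mannose 6-phosphate receptor, takes IGF2 into the cell for degradation and carries lysosomal enzymes. The binding proteins hold the ligands outside the cell and can either block or prolong their action, and proteases release the ligands by cutting them. In injured nerve, IGFs are known to promote axon growth and to keep Schwann cells alive.

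The arrays fitted their labels. Nmnat1, part of which is fused into the WldS gene, had a log2 signal between 5.42 and 6.34 on the 8 C57BL/6 arrays and between 8.50 and 9.35 on the 8 WldS arrays. The Schwann cell genes Mbp, Sox10 and S100b were bright in uninjured nerve, with group mean log2 signals of 14.28, 12.12 and 11.86 in C57BL/6. The median SD between the arrays of a group was 0.061 to 0.145. The 3'/5' index, the log2 gap between 3' and 5' control probe sets of Actb and Gapdh that widens as RNA degrades, was 3.81 on WldS day 0 replicate 1 and 3.23 on WldS day 14 replicate 2, against 1.63 to 2.46 on the other arrays. The 2 uninjured WldS arrays also differed in tissue markers: the mean log2 signal of 4 adipocyte genes was 8.05 on replicate 1 and 9.06 on replicate 2, and that of 5 skeletal muscle genes was 5.88 and 6.80. In pooled tissue, fewer cells of a type and less RNA per cell cannot be told apart.

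To show the regulatory DNA in front of the members with the widest swings, the promoter windows of Igf1, Igfbp2 and Igfbp3 are printed. They run from 250 bases before to 50 bases after a transcription start, 5′ to 3′ on the gene's strand, from RefSeq in the build GRCm38.p6. Igfbp2 has 2 annotated starts. Capitals mark matches to the AP-1 motif TGANTCA, searched on both strands.
Igf1, chr10:87860861-87861160, plus strand: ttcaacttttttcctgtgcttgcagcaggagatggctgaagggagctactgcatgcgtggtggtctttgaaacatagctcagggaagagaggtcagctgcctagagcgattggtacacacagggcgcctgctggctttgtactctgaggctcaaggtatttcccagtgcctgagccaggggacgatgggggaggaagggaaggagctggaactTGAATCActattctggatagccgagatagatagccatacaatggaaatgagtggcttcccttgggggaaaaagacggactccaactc
Igfbp2, start 1, chr1:72824230-72824529, plus strand: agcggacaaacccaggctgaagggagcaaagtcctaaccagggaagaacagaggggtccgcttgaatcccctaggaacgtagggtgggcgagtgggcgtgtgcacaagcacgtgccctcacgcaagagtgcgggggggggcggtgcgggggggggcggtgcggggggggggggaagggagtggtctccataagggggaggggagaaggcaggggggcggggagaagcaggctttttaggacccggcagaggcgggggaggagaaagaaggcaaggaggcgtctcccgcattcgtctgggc
Igfbp2, start 2, chr1:72825137-72825436, plus strand: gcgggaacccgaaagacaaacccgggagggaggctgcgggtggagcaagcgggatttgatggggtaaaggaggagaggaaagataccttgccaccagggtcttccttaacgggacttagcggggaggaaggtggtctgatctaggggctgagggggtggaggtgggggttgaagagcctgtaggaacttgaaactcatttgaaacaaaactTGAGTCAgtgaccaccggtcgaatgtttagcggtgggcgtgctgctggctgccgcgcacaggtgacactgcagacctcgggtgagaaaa
Igfbp3, chr11:7213874-7214173, minus strand: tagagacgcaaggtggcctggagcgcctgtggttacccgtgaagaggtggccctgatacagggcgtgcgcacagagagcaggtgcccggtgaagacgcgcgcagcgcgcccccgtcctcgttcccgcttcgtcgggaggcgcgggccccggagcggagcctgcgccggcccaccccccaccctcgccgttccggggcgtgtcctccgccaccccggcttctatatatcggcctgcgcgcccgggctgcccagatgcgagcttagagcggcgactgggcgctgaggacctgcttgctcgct

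RefSeq windows were matched for all 10 members, 14 in all. The AP-1 letters stood in 2 of the 14, in Igf1 as TGAATCA with its first base at -37 from the start and in the second Igfbp2 window as TGAGTCA at -39. Of all 32851 promoter windows of this length, 7.81% held such a match. The Igfbp3 window and the first Igfbp2 window were rich in G and C, at 71.7% and 67.0% of bases, against 57.3% in the second Igfbp2 window and 52.3% in Igf1. The GC box GGGCGG, on either strand, was found 3 times in the first Igfbp2 window and also in front of Igf1r, Igf2, Igf2r and Igfbp7, against 35.7% of all windows. The TATA box TATAAA, on either strand, was in front of Igfbp4 and Igfbp6, against 13.6% of all windows. In all 13 motifs were searched and the other 10 are not described. A match describes letters, not a bound site.

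The first question was how the system moved after the crush in nerve whose axons degenerate at the normal pace. In C57BL/6, 5 of the 10 members were higher and 2 lower at day 3 than at day 0. At that day 22.6% of all genes tested were called higher and 18.4% lower, at an adjusted p below 0.05 (limma, Benjamini-Hochberg over all genes). At day 7 the counts were 6 higher and 2 lower, beside 19.6% and 16.4% of all genes. By day 14 only 2 were higher and 4 lower, beside 17.1% and 16.7%. The median log2 change of the 10 was 0.34, 0.76 and 0.02 at the 3 days, against 0.02, 0.02 and -0.00 for all genes. The day 14 count fell without C57BL/6 day 0 replicate 1, and the calls over all genes fell with it.

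In WldS, 4 members were higher and 2 lower at day 3, beside 20.8% and 15.2% of all genes. At day 7 there were 7 higher and 1 lower, beside 21.9% and 13.3%. At day 14 there were 3 higher and 1 lower, beside 12.7% and 8.56%. The median log2 changes were 0.29, 0.68 and 0.29, against -0.02, 0.01 and 0.01 for all genes. The day 3 count of 6 dropped when WldS day 0 replicate 1 or WldS day 3 replicate 2 was left out, and without both arrays of high 3'/5' index. Calls over all genes dropped in each of these fits too. With that index as a covariate the member count was 2. Over all genes 3465 were then called, beside 3031 higher and 2205 lower without the covariate.

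**Figure D1:**
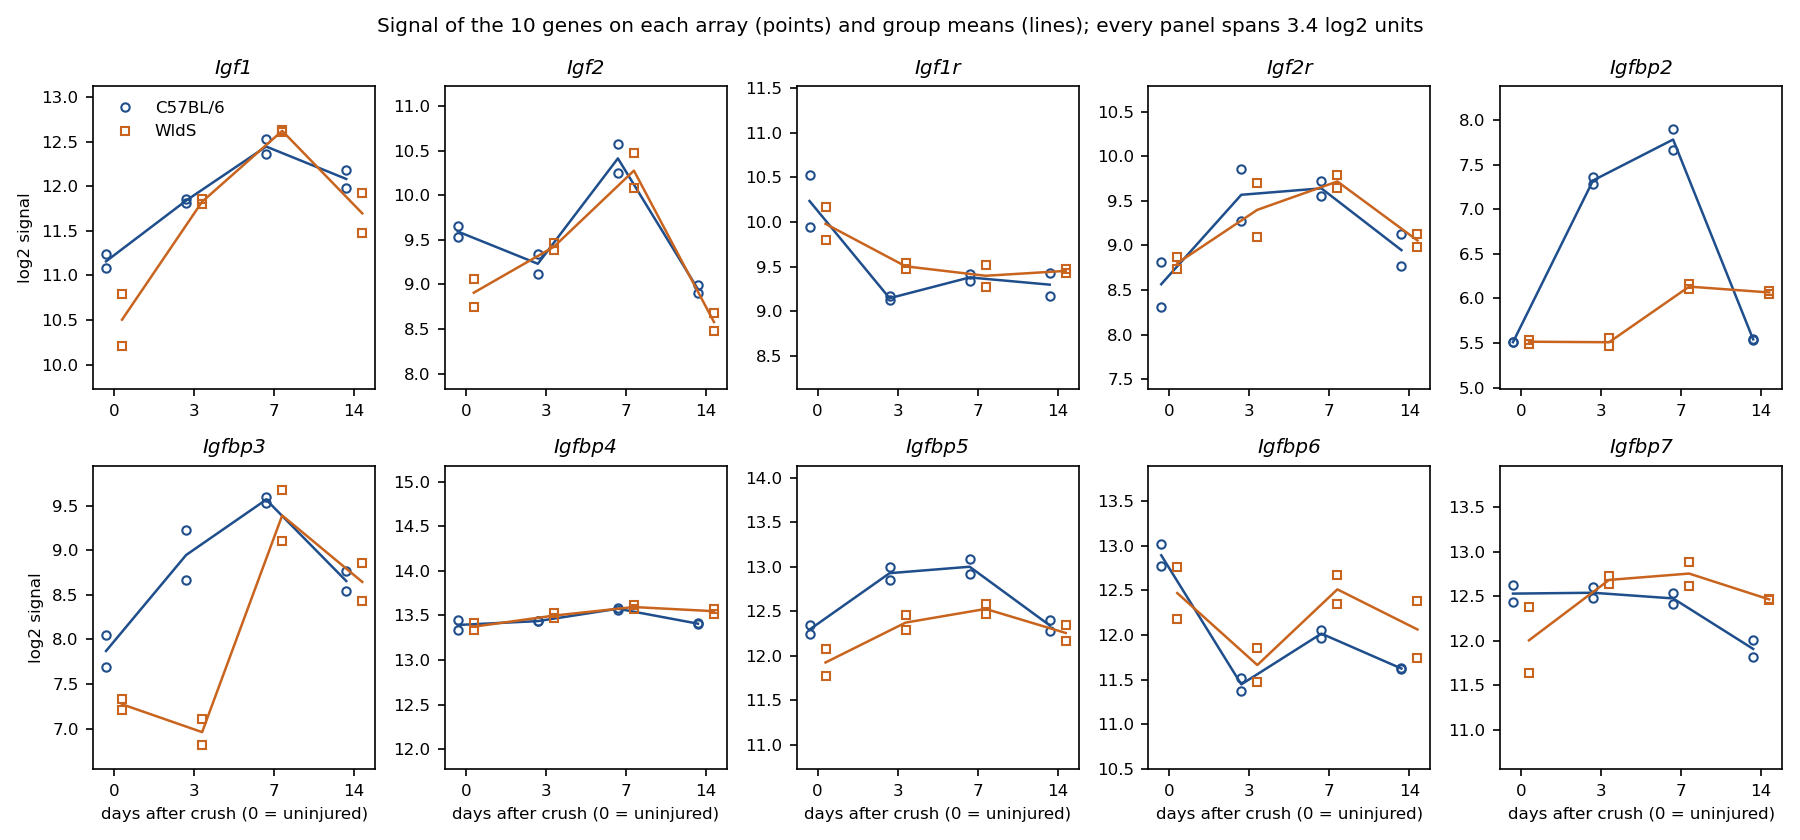
Log2 signal (vertical axis) of the 10 genes on each of the 16 arrays against days after the crush (horizontal axis, days 0, 3, 7 and 14 evenly spaced), with circles for C57BL/6, squares for WldS and lines through the group means. Igfbp2 climbed in C57BL/6 to 7.78 at day 7 while WldS reached 6.13, and Igfbp3 in WldS was at 6.96 at day 3 and 9.39 at day 7.

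Of the ligands, Igf1 rose at every time point in both strains, to a peak at day 7 on the probe set used. In C57BL/6 its log2 signal was 11.24 and 11.08 on the 2 uninjured arrays, 11.82 and 11.86 at day 3, 12.53 and 12.36 at day 7, and 12.18 and 11.98 at day 14. In WldS it was 10.21 and 10.79, then 11.85 and 11.80, then 12.63 and 12.61, and last 11.92 and 11.47. Within each strain no injured array overlapped the uninjured ones. The log2 rise at day 7 was 1.29 ± 0.18 (SE; 2.44-fold, adjusted p = 5.79e-05) in C57BL/6 and 2.12 ± 0.18 (4.34-fold, adjusted p = 1.05e-06) in WldS. At day 3 the rises were 0.68 ± 0.18 (adjusted p = 0.00643) and 1.32 ± 0.18 (adjusted p = 4.98e-05), and at day 14 they were 0.92 ± 0.18 (adjusted p = 0.00108) and 1.19 ± 0.18 (adjusted p = 0.000287). The day 3 rise in C57BL/6 lost its call without C57BL/6 day 0 replicate 2 (adjusted p = 0.0528). On the probe set used, the larger WldS steps began from a lower uninjured level. The interaction, which is the WldS change minus the C57BL/6 change, was 0.83 ± 0.25 at day 7 (adjusted p = 0.0851) and did not pass the test. Over the alternatives that interaction ran from 0.42 to 1.12. It was highest without WldS day 0 replicate 2, which left the array of highest 3'/5' index as the only uninjured WldS one. At day 3 the injured arrays of both strains lay close together (difference -0.01, 95% interval -0.39 to 0.37).

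Igf1 also moved between successive days. It rose from day 3 to day 7 by 0.61 ± 0.18 in C57BL/6 (adjusted p = 0.0271) and by 0.79 ± 0.18 in WldS (adjusted p = 0.0137), and then fell by 0.93 ± 0.18 to day 14 in WldS (adjusted p = 0.00727), whereas the C57BL/6 step of -0.36 ± 0.18 was not called. These steps rested on few arrays: the C57BL/6 rise was lost without any 1 of its 4 arrays, the WldS rise without 3 of its 4, and the WldS fall without WldS day 14 replicate 2 (adjusted p = 0.12). The other 3 probe sets of Igf1 moved the same way in all 6 comparisons with day 0, for example by 0.99 to 1.57 at day 7 in C57BL/6. On 1 of them the uninjured mean was higher in WldS than in C57BL/6 (9.79 against 9.68). Its day 7 rises were 1.04 in WldS and 0.99 in C57BL/6. On the rest the uninjured WldS mean was lower. The day of the peak also varied between probe sets. The brightest of the others peaked at day 7 in both strains. The dimmest was highest at day 3, with 10.62 against 10.45 at day 7 in C57BL/6 and 10.67 against 10.57 in WldS. The remaining probe set was highest at day 14 in C57BL/6 (10.82, against 10.67 at day 7) and at day 7 in WldS. The macrophage genes Cd68, Adgre1, Csf1r, Aif1, Itgam and Mrc1 were all 6 higher at day 3 in both strains, with median log2 changes of 2.07 and 2.49 that had shrunk to 1.53 and 1.30 by day 7. The mean log2 level of the 6 ran from 8.77 to 9.00 on the uninjured C57BL/6 arrays and from 10.77 to 10.85 at day 3, and from 8.62 to 8.79 and from 10.96 to 11.21 in WldS. On the probe set used Igf1 had its highest group means at day 7, and the part of macrophages in its rise was not tested.

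Igf2, the fetal growth factor that is imprinted in most tissues, had a brief maximum at day 7. Its log2 signals in C57BL/6 were 9.66 and 9.53 uninjured, 9.34 and 9.12 at day 3, 10.57 and 10.25 at day 7, and 8.99 and 8.90 at day 14. The WldS arrays read 8.75 and 9.06, then 9.38 and 9.46, then 10.08 and 10.47, and last 8.48 and 8.68. Day 7 was the highest group in both strains and day 14 the lowest, with no overlap between those days. At day 7 the gene had risen by 0.82 ± 0.16 in C57BL/6 (adjusted p = 0.00104) and by 1.37 ± 0.16 in WldS (adjusted p = 2.26e-05). From day 7 to day 14 it fell by 1.47 ± 0.16 in C57BL/6 (2.77-fold, adjusted p = 5.37e-05) and by 1.70 ± 0.16 in WldS (3.24-fold, adjusted p = 7.3e-05), and both falls held under every alternative tried. At day 14 C57BL/6 stood 0.65 ± 0.16 below its uninjured level, a log2 change of -0.65 (adjusted p = 0.0059), a call that was lost without C57BL/6 day 0 replicate 1 (adjusted p = 0.0531), while the WldS change was -0.33 ± 0.16 (adjusted p = 0.166).

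At day 3 the Igf2 change was -0.36 ± 0.16 in C57BL/6 (adjusted p = 0.0863, not called) and 0.51 ± 0.16 in WldS (adjusted p = 0.0211). The WldS call was lost in 7 of 12 alternatives, with values down to 0.18 and adjusted p up to 0.271, among them both arrays of high 3'/5' index left out (adjusted p = 0.162) and that index as a covariate (adjusted p = 0.172). The difference between those changes was 0.88 ± 0.22 and was called (adjusted p = 0.0335). It rested on the uninjured levels, since the day 3 arrays of the strains differed by 0.19 (95% interval -0.15 to 0.53), and it lost its call under 11 of 16 alternatives (adjusted p up to 0.131), 7 of which left out a single array. The second Igf2 probe set lay below the threshold for dim probe sets, with group means of 5.06 to 5.48, and gives no second reading.

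The receptors moved in opposite directions. Igf1r, through which both ligands signal, was lower than uninjured at all 3 days in both strains. The uninjured C57BL/6 arrays read 10.53 and 9.94, and the injured ones 9.12 and 9.17 at day 3, 9.42 and 9.34 at day 7, and 9.17 and 9.43 at day 14. The uninjured WldS arrays read 9.80 and 10.16, against 9.47 and 9.54, then 9.52 and 9.27, then 9.43 and 9.47. Every injured array lay below every uninjured one, over both strains. Igf1r fell by 1.09 ± 0.18 at day 3 (2.13-fold, adjusted p = 0.00017), by 0.86 ± 0.18 at day 7 (adjusted p = 0.00158) and by 0.94 ± 0.18 at day 14 (adjusted p = 0.000913) in C57BL/6, and these 3 calls held under every alternative. In WldS it fell by 0.48 ± 0.18 (adjusted p = 0.0477), 0.58 ± 0.18 (adjusted p = 0.0193) and 0.53 ± 0.18 (adjusted p = 0.0465), near the threshold. The first and last of these WldS calls were lost under 8 of 12 alternatives each (adjusted p up to 0.28 and 0.26) and the day 7 call without WldS day 0 replicate 2 or WldS day 7 replicate 2 (adjusted p up to 0.14). The interaction at day 3 was 0.61 ± 0.25 (adjusted p = 0.184) and was not called. Of the other 4 Igf1r probe sets, 3 fell with it at day 3 in C57BL/6 and the changes ran from -1.02 to 0.06.

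Igf2r rose in both strains. Its C57BL/6 log2 signals were 8.31 and 8.82 uninjured, 9.27 and 9.86 at day 3, 9.55 and 9.72 at day 7, and 9.13 and 8.77 at day 14. The WldS arrays gave 8.73 and 8.87, then 9.09 and 9.70, then 9.79 and 9.64, and last 8.98 and 9.13. The spread within groups was wide, up to an SD of 0.43, and only the day 3 and day 7 arrays stood clear of the uninjured ones in both strains. The rise was 1.00 ± 0.23 at day 3 (adjusted p = 0.00253) and 1.07 ± 0.23 at day 7 (2.11-fold, adjusted p = 0.00195) in C57BL/6, and 0.92 ± 0.23 at day 7 in WldS (adjusted p = 0.00634), the last lost with the 3'/5' index as a covariate (adjusted p = 0.0536). The WldS change of 0.60 ± 0.23 at day 3 had an adjusted p of 0.0536, and the day 14 changes of 0.38 and 0.25 were not called. The dimmer Igf2r probe set rose further, by 1.35, 1.50 and 1.05 in C57BL/6 and by 1.14, 1.45 and 0.91 in WldS. No strain difference in Igf2r passed at any day, and at day 7 its 95% interval ran from -0.41 to 0.56.

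**Figure D2:**
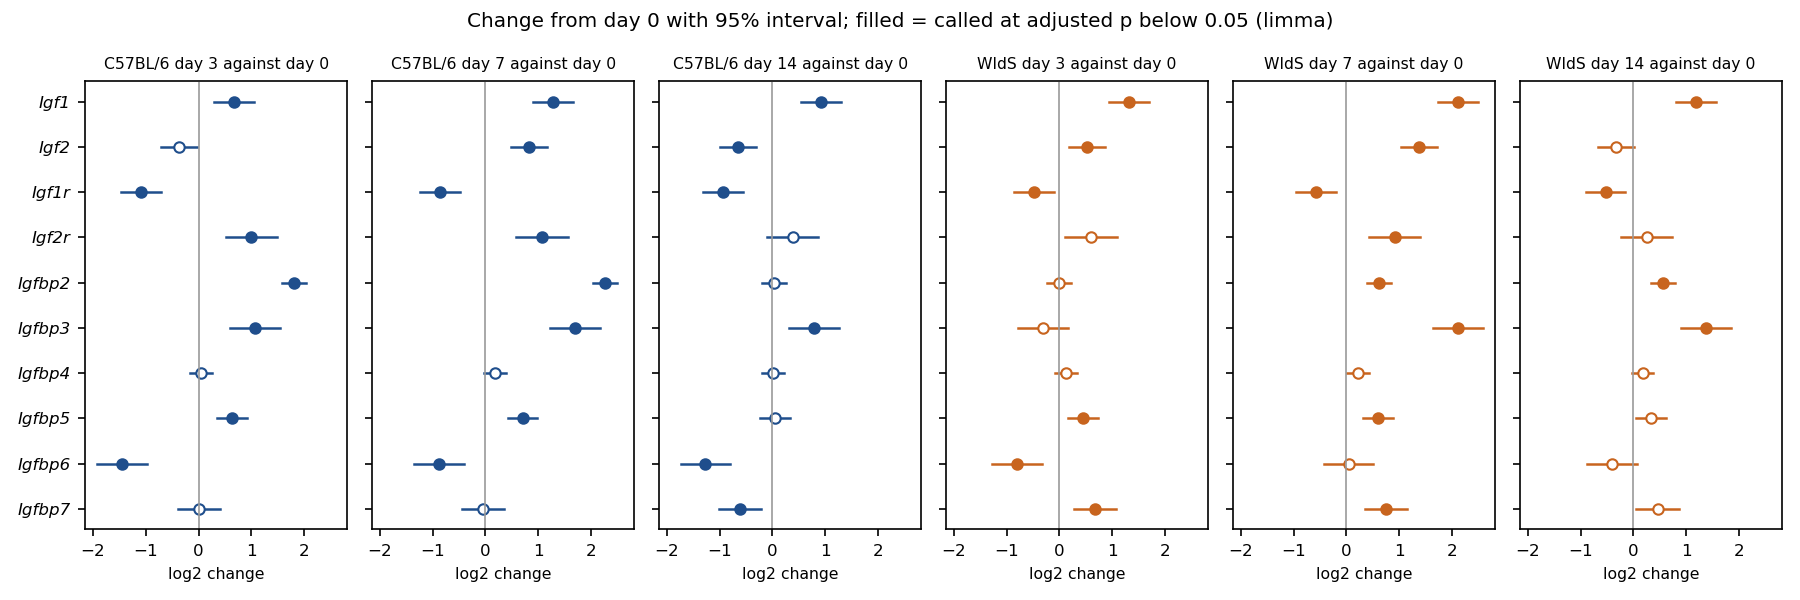
Log2 change from day 0 (horizontal axis) of the 10 genes (vertical axis) at each day in each strain, with 95% intervals from limma and filled points where the gene was called. The ligand Igf1 lies right of 0 and the receptor Igf1r left of 0 in all 6 panels, while Igfbp4 is open in all 6.

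The largest change from day 0 was that of a binding protein in C57BL/6, while in WldS the ligand Igf1 and Igfbp3 rose alike at day 7 (2.12 each). Igfbp2, which binds IGF2 with preference and is abundant in fetal tissue, rose 4.83-fold in C57BL/6 by day 7 and was back at its uninjured level by day 14. It read 5.51 on both uninjured C57BL/6 arrays, 7.36 and 7.28 at day 3, 7.90 and 7.66 at day 7, and 5.54 on both arrays at day 14. The log2 rise was 1.81 ± 0.11 at day 3 (adjusted p = 1.04e-08) and 2.27 ± 0.11 at day 7 (adjusted p = 1.51e-09), the day 14 change was 0.03 (95% interval -0.20 to 0.26), and the fall from day 7 to day 14 was -2.24 ± 0.11 (adjusted p = 1.16e-08). In WldS the gene was at 5.54 and 5.49 uninjured and 5.46 and 5.56 at day 3, a change of -0.01 (95% interval -0.23 to 0.22). It then stood at 6.11 and 6.16 at day 7 and at 6.09 and 6.05 at day 14, rises of 0.62 ± 0.11 (adjusted p = 0.000522) and 0.55 ± 0.11 (adjusted p = 0.00205). WldS thus had a later and smaller rise that was still present at day 14. The uninjured signals lay just above the threshold for dim probe sets (5.37), and Igfbp2 had only 1 probe set.

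Igfbp3, the chief carrier of IGFs in blood, rose in both strains but from a different day. Its C57BL/6 log2 signals were 7.69 and 8.05 uninjured, 8.66 and 9.23 at day 3, 9.60 and 9.53 at day 7, and 8.55 and 8.77 at day 14. The WldS signals were 7.21 and 7.33, then 6.81 and 7.11, then 9.68 and 9.10, and last 8.86 and 8.43. Both day 3 arrays of WldS were below its uninjured arrays, whereas every later array was above them. In C57BL/6 the rise was 1.08 ± 0.22 at day 3 (adjusted p = 0.00125), 1.70 ± 0.22 at day 7 (3.24-fold, adjusted p = 3.52e-05) and 0.78 ± 0.22 at day 14 (adjusted p = 0.0134). The day 14 call was lost without C57BL/6 day 0 replicate 1 or C57BL/6 day 14 replicate 2 (adjusted p up to 0.136). In WldS the day 3 change was -0.31 ± 0.22 (adjusted p = 0.298), followed by rises of 2.12 ± 0.22 at day 7 (4.34-fold, adjusted p = 8.54e-06) and 1.37 ± 0.22 at day 14 (adjusted p = 0.000541). Between days 3 and 7 WldS rose by 2.43 ± 0.22 (5.39-fold, adjusted p = 2.97e-05), a step that held in every alternative. The dimmer Igfbp3 probe set gave the same signs in all 6 comparisons, with 0.92 at day 3 in C57BL/6 and -0.24 in WldS.

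Igfbp4, which mostly inhibits IGF action and is cut by the protease PAPP-A, was bright in every group and was called in none of the 17 comparisons. The group means of its brightest probe set ran from 13.37 to 13.59, a span of 0.22, and the change at day 7 was 0.18 ± 0.10 in C57BL/6 (adjusted p = 0.166) and 0.22 ± 0.10 in WldS (adjusted p = 0.0926). Its other 5 probe sets were dimmer and moved more. In WldS all 5 were higher at day 7 than uninjured, by 0.46 to 1.36, and the probe set at 9.14 uninjured reached 10.50. With the mean of all its probe sets, Igfbp4 was called higher in WldS at day 3 (0.60, adjusted p = 0.00134) and day 7 (0.79, adjusted p = 0.000245). The result for Igfbp4 thus depended on which of its probe sets was read.

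**Figure D3:**
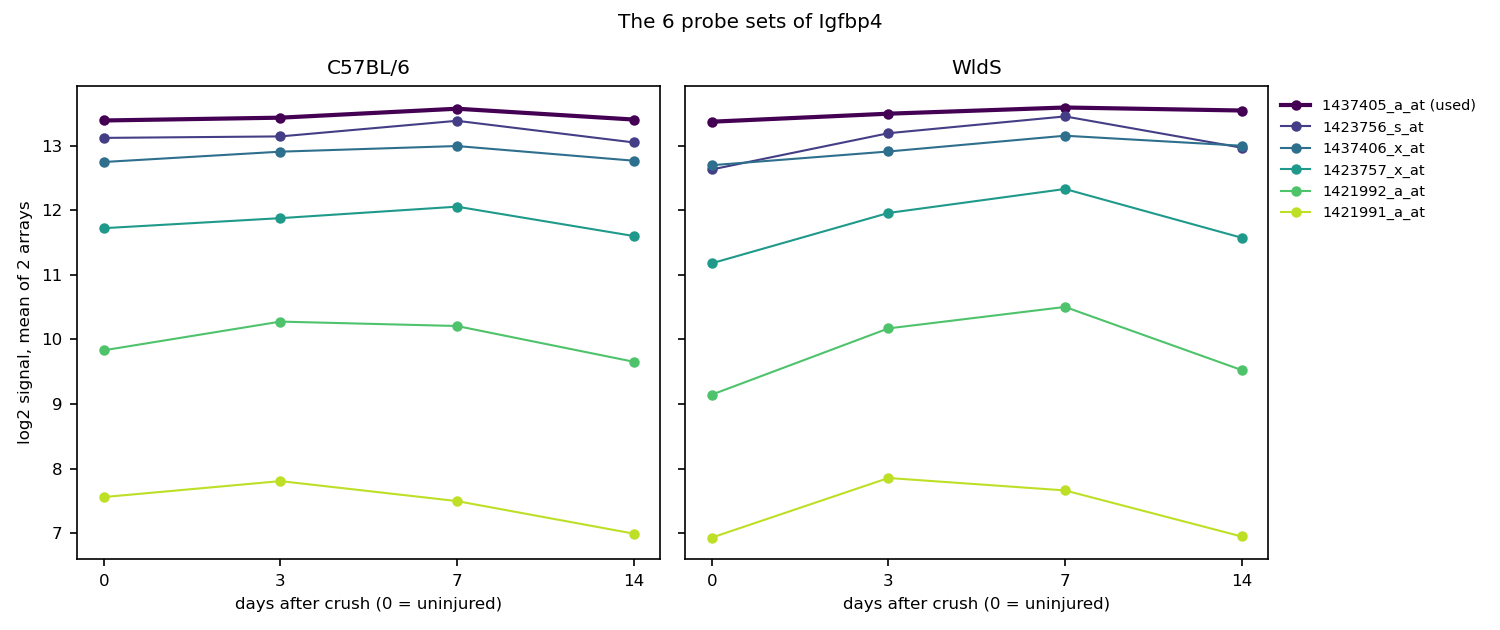
Mean log2 signal of 2 arrays (vertical axis) for each of the 6 probe sets of Igfbp4 against days after the crush (evenly spaced), with C57BL/6 on the left and WldS on the right. The brightest line, the probe set used, is nearly flat between 13.37 and 13.59, while dimmer lines in WldS bow upward at day 3 or day 7.

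Igfbp5, a binding protein that also associates with matrix, rose in both strains at days 3 and 7. The C57BL/6 arrays read 12.34 and 12.25 uninjured, 12.85 and 13.00 at day 3, 13.09 and 12.91 at day 7, and 12.41 and 12.28 at day 14. WldS read 11.78 and 12.08, then 12.29 and 12.46, then 12.58 and 12.47, and last 12.35 and 12.16. The C57BL/6 rises of 0.63 ± 0.13 (adjusted p = 0.00129) and 0.70 ± 0.13 (adjusted p = 0.000723) held in every alternative, and the gene fell back by day 14 with a step of -0.66 ± 0.13 (adjusted p = 0.00731; up to 0.118 without C57BL/6 day 7 replicate 1 or C57BL/6 day 14 replicate 2). The WldS rises of 0.45 ± 0.13 at day 3 (adjusted p = 0.0156) and 0.60 ± 0.13 at day 7 (adjusted p = 0.0028) were lost with the 3'/5' index as a covariate (adjusted p = 0.463 and 0.0836). The day 3 call was lost in 6 of 12 alternatives in all, quantile normalization and the averaged probe sets among them; it was 0.30 when WldS day 0 replicate 1 was left out (adjusted p = 0.148) and 0.37 when WldS day 3 replicate 2 was (adjusted p = 0.121). The day 7 call was also lost with the averaged probe sets (0.22, adjusted p = 0.16). The second Igfbp5 probe set moved by 0.33 and 0.27 in C57BL/6 and by -0.13 and -0.15 in WldS, so the WldS rise was seen on 1 of 2 probe sets.

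Igfbp6, which binds IGF2 with preference, fell. Its C57BL/6 signals were 12.77 and 13.02 uninjured, 11.37 and 11.52 at day 3, 11.97 and 12.06 at day 7, and 11.62 and 11.63 at day 14. In WldS they were 12.18 and 12.76, then 11.86 and 11.47, then 12.35 and 12.67, and last 12.38 and 11.75. Every injured C57BL/6 array was below the uninjured ones, and in WldS only the day 3 arrays were. The falls in C57BL/6 were -1.45 ± 0.22 (2.73-fold, adjusted p = 9.83e-05), -0.88 ± 0.22 (adjusted p = 0.00601) and -1.27 ± 0.22 (adjusted p = 0.00049) on the log2 scale, the middle value lost without C57BL/6 day 0 replicate 2 (adjusted p = 0.0583). WldS fell by 0.81 ± 0.22 at day 3 (adjusted p = 0.0104; adjusted p up to 0.108 without WldS day 0 replicate 2 or WldS day 3 replicate 2). Its changes at day 7 (0.04 ± 0.22) and day 14 (-0.41 ± 0.22) were not called. With the 3'/5' index as a covariate the WldS day 7 change became -0.54 (adjusted p = 0.0447). The 4 perineurial genes Slc2a1, Cldn1, Tenm2 and Itgb4 fell alongside in C57BL/6: all 4 were lower at days 3 and 14, and their mean log2 level went from between 11.66 and 11.81 to between 10.11 and 10.13 at day 3. In WldS 1 of the 4 was lower at day 3, with a mean level of 11.15 to 11.16 against 11.25 to 11.67 uninjured. All 4 adipocyte genes measured were lower at every day in C57BL/6 (median log2 change -2.07 at day 3, -0.87 in WldS). The parts of these cells in the fall of Igfbp6 were not tested.

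Igfbp7, a relative that binds IGFs weakly and is made by blood vessels, was lower at day 14 in C57BL/6 and higher at days 3 and 7 in WldS, but no difference between these changes passed the test. The C57BL/6 arrays read 12.62 and 12.44 uninjured, 12.60 and 12.48 at day 3, 12.53 and 12.42 at day 7, and 12.01 and 11.81 at day 14. The WldS arrays read 11.64 and 12.38, then 12.73 and 12.64, then 12.62 and 12.89, and last 12.47 and 12.46. In C57BL/6 only day 14 stood apart, with a log2 change of -0.62 ± 0.19 (adjusted p = 0.019), lost without C57BL/6 day 0 replicate 1 or C57BL/6 day 14 replicate 2 (adjusted p up to 0.133), and also when its probe sets were averaged (adjusted p = 0.0879). In WldS the gene rose by 0.68 ± 0.19 at day 3 (adjusted p = 0.0113) and 0.75 ± 0.19 at day 7 (adjusted p = 0.00659). Those rises leaned on WldS day 0 replicate 1, the array with the highest 3'/5' index. Without it they were 0.31 (adjusted p = 0.151) and 0.38 (adjusted p = 0.0783), and each was also lost when an injured array was left out, WldS day 3 replicate 1 (adjusted p = 0.0747) or WldS day 7 replicate 2 (adjusted p = 0.0566). Of the 5 endothelial genes Pecam1, Cdh5, Kdr, Tek and Vwf, 3 were higher and 0 lower at each of these days in WldS (median log2 changes 0.70 and 0.75). At day 14 in WldS 1 was higher. In C57BL/6 none was called at day 3, 1 was higher and 1 lower at day 7, and 2 were lower at day 14 (median -0.34). Their mean log2 level in WldS was 8.30 to 8.64 uninjured and 9.06 to 9.16 at day 3. Of 5 pericyte and smooth muscle genes (Acta2, Myh11, Rgs5, Cspg4 and Pdgfrb), 3 were higher and 1 lower in WldS at day 3. In WldS 2 were higher at day 7 and 2 lower at day 14. In C57BL/6 2, 3 and 3 were lower at days 3, 7 and 14 and none higher. The part of these vessel cells in the Igfbp7 values was not tested. The interactions were 0.67 ± 0.26 at day 3 (adjusted p = 0.172), 0.80 ± 0.26 at day 7 (adjusted p = 0.116) and 1.08 ± 0.26 at day 14 (adjusted p = 0.0613), none called. The other 2 Igfbp7 probe sets were far dimmer, and at day 7 in WldS they changed by -0.08 and 0.72.

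Steps between successive days placed the peaks on the probe sets used. From day 3 to day 7, 3 members rose in C57BL/6 (Igf1, Igf2 and Igfbp2), where 20.3% of all genes were called in either direction, and 5 rose in WldS (Igf1, Igf2, Igfbp2, Igfbp3 and Igfbp6), where 6.62% were. From day 7 to day 14, 4 fell in C57BL/6 (Igf2, Igfbp2, Igfbp3 and Igfbp5), beside 5.27% of all genes, and 2 fell in WldS (Igf1 and Igf2), beside 5.23%. None moved the other way in these 4 comparisons. The C57BL/6 counts were 1 without C57BL/6 day 7 replicate 1 for the first step and 2 without C57BL/6 day 7 replicate 1 or C57BL/6 day 14 replicate 2 for the second. The Igfbp6 rise in WldS was lost without any 1 of its 4 arrays (adjusted p up to 0.233). In WldS the first count fell without WldS day 3 replicate 1, WldS day 3 replicate 2 or WldS day 7 replicate 1. The second fell without WldS day 14 replicate 2. Calls over all genes fell too in each fit named here for a count.

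The next question was where the strains differed. Before injury no member was called, beside 0.227% of all genes. By limma 5 of the 10 had an unadjusted p below 0.05. The share of all genes at that level was not counted, so this count cannot be read as a result about the members. These 5 (Igf1, Igf2, Igfbp3, Igfbp5 and Igfbp7) were all lower in WldS on the probe sets used, with log2 differences from -0.69 to -0.37. Other probe sets read alike in C57BL/6 and WldS for Igfbp5 (10.05 and 10.08) and Igfbp7 (6.90 and 6.91, 6.29 and 6.30). Of those of Igf1, 1 was higher in WldS (9.68 and 9.79) and the rest were lower, as was the second of Igfbp3. Leaving out WldS day 0 replicate 2 gave 4 called members, all among these 5, whereas leaving out its replicate 1 gave 0. The calls over all 14545 genes moved the same way, from 33 to 1791 without replicate 2 and to 20 without replicate 1. At day 3, 3 members were lower in WldS than in C57BL/6, beside 9.44% of all genes in either direction. Igfbp3 differed by -1.99 ± 0.22 (3.96-fold, adjusted p = 3.59e-05), Igfbp2 by -1.81 ± 0.11 (3.52-fold, adjusted p = 5.46e-08) and Igfbp5 by -0.55 ± 0.13 (adjusted p = 0.014; up to 0.149, its call resting on C57BL/6 day 3 replicate 2 and on WldS day 3 replicate 1). Cell markers differed beside them at day 3: all 4 perineurial genes and all 4 mast cell genes were higher in WldS (median differences 1.08 and 1.34), and Ngfr, a gene of Schwann cells that have lost their axon, had group means of 11.33 in C57BL/6 and 7.66 in WldS. Of the 4 Schwann cell genes (Mbp, Sox10, S100b and Ngfr), 2 were higher and 1 lower in WldS. Against day 0, 3 of these 4 were lower and 1 higher in C57BL/6 at day 3, and all 4 were lower in WldS. The part of these cells in the member differences was not tested. At day 7, 2 members were lower in WldS, beside 6.83% of all genes: Igfbp2 by -1.65 ± 0.11 (3.14-fold, adjusted p = 2.43e-07) and Igfbp5 by -0.47 ± 0.13 (adjusted p = 0.0433). At day 14 only Igfbp2 differed, beside 6.46% of all genes, and it was then higher in WldS by 0.53 ± 0.11 (adjusted p = 0.00892). Its call there was lost without either C57BL/6 day 14 array (adjusted p up to 0.0685), and the Igfbp5 call at day 7 without any 1 of its 4 arrays and with median centring or the replicate block.

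The interaction asks whether the change itself differed between strains. At day 3 it was called for 3 members, 1 higher and 2 lower, beside 6.16% of all genes. For Igfbp2 the interaction was -1.82 ± 0.15 at day 3 (adjusted p = 4.68e-06) and -1.65 ± 0.15 at day 7 (adjusted p = 1.79e-05), both called in all 16 alternatives. The change of Igfbp3 was lower by -1.39 ± 0.31 at day 3 (adjusted p = 0.017), lost in 4 of 16 alternatives, and Igf2 was the member with a higher change. At day 7 Igfbp2 was the only member called, beside 4.11% of all genes. At day 14 none was called, beside 1.58% of all genes. Igfbp5, lower in WldS at days 3 and 7, had interactions of -0.19 and -0.10 that were not called (adjusted p = 0.628 and 0.815). Left-out arrays moved these counts. At day 3 the count fell without C57BL/6 day 0 replicate 1, C57BL/6 day 3 replicate 2 or WldS day 3 replicate 1, and so did the calls over all genes. The counts rose at days 3, 7 and 14 without WldS day 0 replicate 2. Without that array the calls over all genes rose too, from 896 to 2058 at day 3, from 598 to 1647 at day 7 and from 230 to 525 at day 14.

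**Figure D4:**
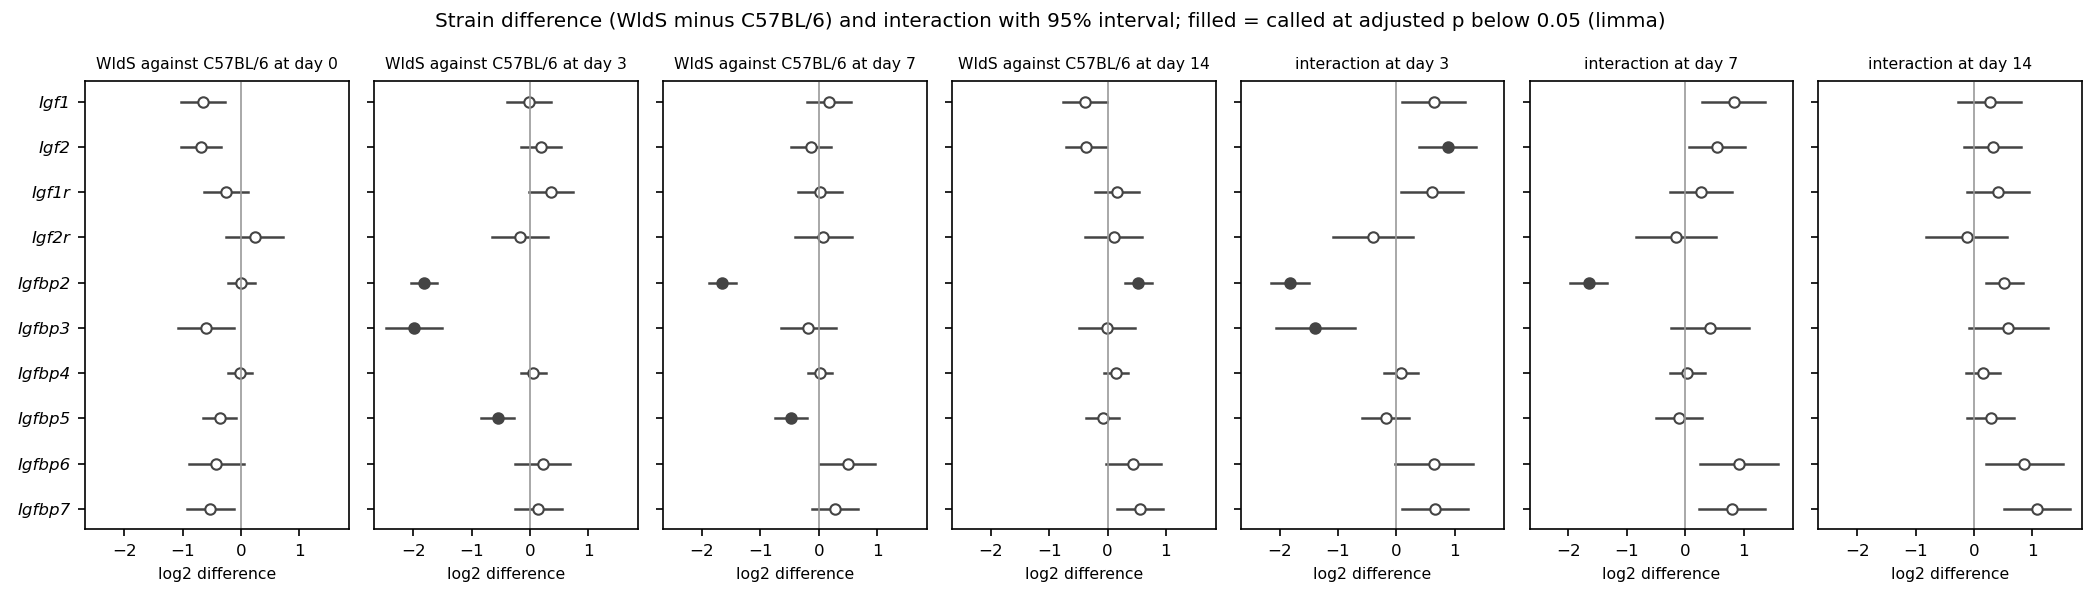
Log2 difference between the strains, WldS minus C57BL/6 (horizontal axis), for the 10 genes (vertical axis) at days 0, 3, 7 and 14, then the interaction at days 3, 7 and 14, with 95% intervals from limma and filled points where called. Igfbp2 lies at -1.81 and -1.65 at days 3 and 7 and at 0.53 at day 14, and Igfbp3 stands apart at day 3 alone with -1.99.

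Ordered by their group means, the members fell into different shapes. For Igf1 the lowest groups were the uninjured nerves, and WldS day 3 and C57BL/6 day 3 overlapped at 11.83 and 11.84. For Igfbp2 the lowest 4 groups overlapped between 5.51 and 5.54 (WldS day 3, both uninjured groups and C57BL/6 day 14), and the upper 4 were each clear of the group below. For Igfbp3 the 3 lowest groups, WldS day 3, WldS day 0 and C57BL/6 day 0, were each clear of the next, and the upper 5 formed a chain from 8.65 to 9.57 in which each overlapped the one below except at its start. For Igf1r the 6 injured groups overlapped in a chain from 9.15 to 9.50, and for Igf2r all 8 groups overlapped their neighbours.

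Among the 45 pairs of members, the group means of Igfbp2 and Igfbp5 were most alike (Pearson r = 0.90 over 8 group means), and Igf1r was most like Igfbp6 (r = 0.82). The genes whose pattern over the 8 group means was most like a member's were, for Igf1, Fndc3b (r = 0.99) and Plagl1 (r = 0.99), for Igf2, Abcc9 (r = 0.96), and for Igf1r, Rgs11 (r = 0.99). For Igf2r the closest was Tpbg (r = 0.99), for Igfbp2 Lingo3 (r = 0.97), for Igfbp3 Igsf3 (r = 0.98), for Igfbp5 C2cd3 (r = 0.96) and for Igfbp6 Akap12 (r = 0.99). These genes were picked as the closest of all genes tested, and all points share the same pools, so the values are descriptions. Pearson r does not weigh the size of a swing. The group means of Lingo3 ran only from 5.51 to 6.10, near the dim threshold, and those of C2cd3 from 7.03 to 7.34. Those of Plagl1 ran from 11.08 to 12.93. Igfbp4 and Igfbp7, with spans of group means under 1 on the log2 scale, were not matched.

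Other genes that carry, release or relay IGFs were counted from a list of 28 tested genes. In C57BL/6, 7 were higher and 8 lower at day 3 (25.0% and 28.6% of the 28, beside 22.6% and 18.4% of all genes), 6 and 7 at day 7 (21.4% and 25.0%, beside 19.6% and 16.4%), and 4 and 6 at day 14 (14.3% and 21.4%, beside 17.1% and 16.7%). In WldS the counts were 6 and 6 (21.4% each, beside 20.8% and 15.2%), 7 and 5 (25.0% and 17.9%, beside 21.9% and 13.3%), and 3 and 2 (10.7% and 7.14%, beside 12.7% and 8.56%). The median change of the 28 stayed between -0.08 and 0.05 at all 6 comparisons. The carriers Igfals and Igfbpl1 were not called at any day. Of the 5 proteases and inhibitors, Adam12, which cuts IGFBP3 and IGFBP5, rose most. Its log2 signals were 6.71 and 6.68 uninjured and 8.23 and 8.24 at day 3 in C57BL/6, and 6.49 and 6.69, then 8.33 and 8.64 in WldS, with no overlap in either strain. The rise was 1.54 ± 0.18 (adjusted p = 9.35e-06) and 1.89 ± 0.18 (adjusted p = 2.17e-06), and by day 7 it was 1.29 and 2.13. Htra1, a secreted protease that can cut IGFBP5, fell at day 3 in C57BL/6 (-0.47 ± 0.11, adjusted p = 0.00246) and rose in WldS at days 7 and 14 (0.36 and 0.44), with no interaction called.

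Downstream of the receptor, the adaptors parted. Grb10, an inhibitory adaptor of the insulin and IGF1 receptors and an imprinted gene, rose at all 3 days in both strains, by 1.50 ± 0.18 at day 7 in C57BL/6 (adjusted p = 1.43e-05) and by 2.37 ± 0.18 in WldS (5.15-fold, adjusted p = 4.1e-07). Its relative Grb14 fell at all 3 days in both. Its C57BL/6 signals were 11.10 and 11.00 uninjured, 9.02 and 9.03 at day 3 and 8.81 and 8.84 at day 7, against 10.71 and 10.98, 10.12 and 10.02, and 9.72 and 10.12 in WldS. The falls at day 7 were -2.22 ± 0.14 (4.67-fold, adjusted p = 2.5e-08) and -0.93 ± 0.14 (adjusted p = 0.000176). The difference between the strains' changes in Grb14 was 1.25 ± 0.19 at day 3 (adjusted p = 0.00133) and 1.30 ± 0.19 at day 7 (adjusted p = 0.0016), and was 0.67 and 0.71 when probe sets were averaged.

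Irs1, the docking protein that couples the receptor to PI 3-kinase, fell by 1.56 ± 0.20 at day 3 in C57BL/6 (adjusted p = 1.73e-05), from 11.36 and 11.09 to 9.56 and 9.77. In WldS its change was not called (10.53 and 10.96 uninjured, 10.48 on both day 3 arrays), and the interaction was 1.29 ± 0.28 (adjusted p = 0.0123; lost in 4 of 16 alternatives). Pik3r1, the regulatory subunit of that kinase, fell by 1.65 ± 0.25 at day 3 in C57BL/6 and by 0.74 ± 0.25 in WldS. Irs2 fell at all 3 days in C57BL/6 (-0.84, -0.83 and -0.91) and at days 3 and 7 in WldS (-0.53 and -0.69). The transcription factor Foxo1, which the pathway restrains, fell at all 3 days in C57BL/6 (-0.92, -0.50 and -0.33) and at days 3 and 7 in WldS, whereas Foxo3 rose at days 7 and 14 in C57BL/6 (0.60 and 0.94) and was not called in WldS. In the growth hormone axis, the receptor gene Ghr fell at all 3 days in C57BL/6 (-0.61, -0.69 and -0.92) and was not called in WldS. The feedback inhibitor Socs2 rose at all 3 days in C57BL/6 (1.27, 0.66 and 1.01) and at days 3 and 7 in WldS (0.92 and 0.97). Differences between strains in Adam12, Grb10, Pik3r1, Ghr, Foxo3, Socs2, Irs2 and Foxo1 did not pass the interaction test at any day.

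**Figure D5:**
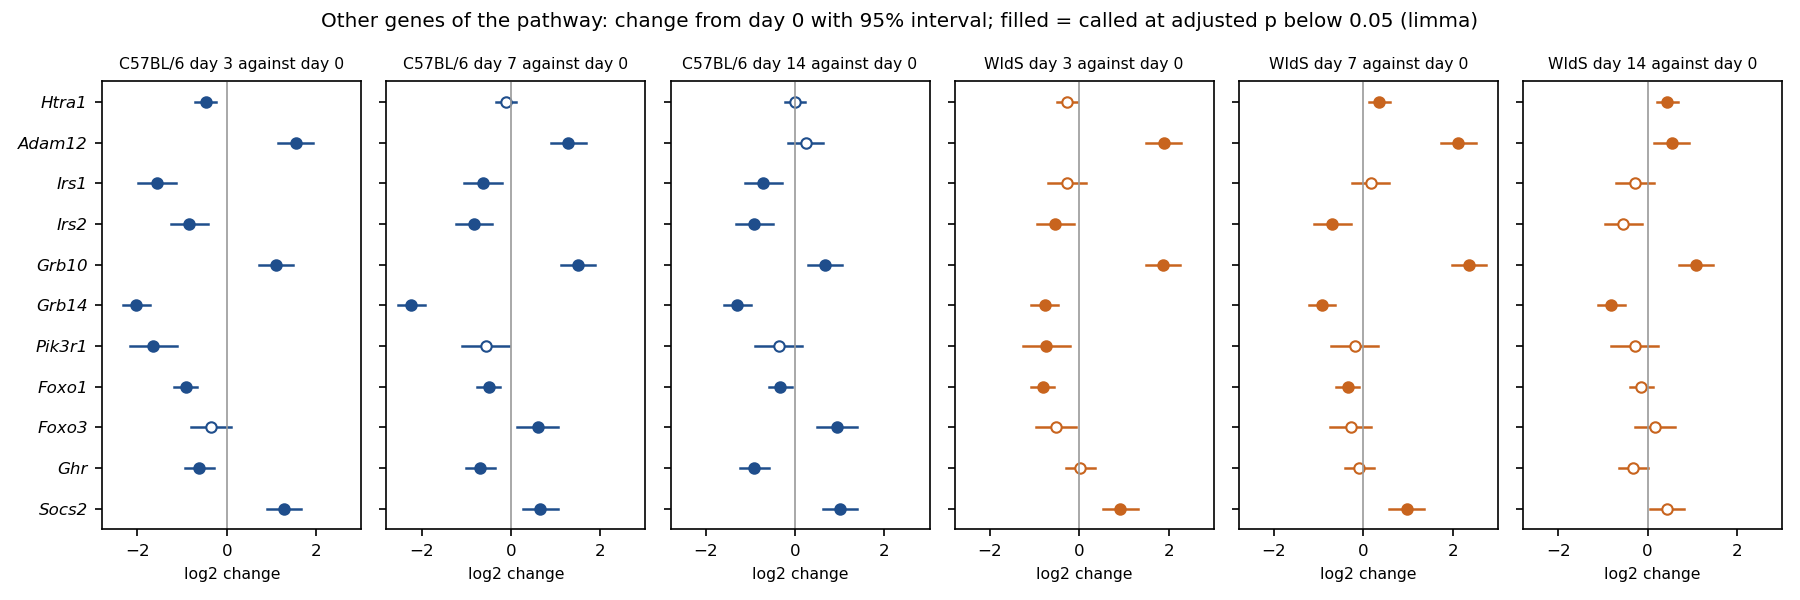
Log2 change from day 0 (horizontal axis) of 11 other genes of the pathway (vertical axis), those among the 4 largest called changes in any comparison with day 0, with 95% intervals from limma and filled points where called. Grb10 lies right of 0 and Grb14 left of 0 in all 6 panels, and Irs1 is filled in the C57BL/6 panels alone.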

How the data were processed

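RNA from pooled nerve segments was hybridized to 16 Affymetrix mouse expression arrays. The values used are on the log2 scale and were deposited by the authors as 1 signal per probe set. The submitters' processing notes name GCOS 1.4, RMA, Partek and limma without saying what each did. Arrays carry no count depth, so their number limits the precision.

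Control probe sets (64 of 45101) were left out; in the platform's probe table, 34945 of the rest carried 1 gene symbol, 932 several and 9160 none. Each gene was read from its brightest probe set by the mean of all arrays, and genes below the 30th percentile (log2 5.37) were dropped as dim, leaving 14545. With limma 3.58.1 (R 4.3.3), 8 group means were estimated and 17 contrasts tested two-sided (8 residual and 5.82 prior degrees of freedom), with Benjamini-Hochberg adjustment over all genes within each contrast and calls at an adjusted p below 0.05. Values after ± are standard errors, and p-values cover only the spread between pools. The scripts were tested on simulated data.

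The members, gene lists and alternatives were chosen with earlier results of these data known. All members are named; of 28 pathway genes tested (35 listed; Igfbp1 and Pappa2 were dim, and the others are not reported here), up to 4 called genes with the largest change per comparison with day 0. Genes alike in pattern had the highest Pearson r over 8 group means, sought for members spanning at least 1 log2 unit. Nmnat1 was read only to check the strain labels. Alternatives were median centring, quantile normalization, no dim filter, the mean of all probe sets, a replicate block, leaving out 2 arrays of high 3'/5' index, that index as a covariate, an intensity trend in the prior, and leaving out each array.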

Additional observations from a re-analysis of the deposited data

Results flagged for a closer look

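The change after the crush differed between the strains, by limma's test of the interaction, for 3 members and 2 other genes of the pathway. For Igfbp2 the WldS change was lower than the C57BL/6 change by -1.82 at day 3 and -1.65 at day 7, and both were called in all 16 alternatives. For Igfbp3 the difference was -1.39 at day 3 (adjusted p = 0.017, from 0.00967 to 0.0918 over the alternatives). For Igf2 it was 0.88 at day 3 (adjusted p = 0.0335, from 0.0111 to 0.131). Irs1 differed by 1.29 at day 3 (adjusted p = 0.0123, from 0.00382 to 0.0696). Grb14 differed by 1.25 at day 3 and 1.30 at day 7, and by 0.67 and 0.71 when its probe sets were averaged, where the adjusted p was highest (0.037 and 0.035).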

How the results depend on the processing

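Of the 63 called changes of the 10 members over 17 comparisons, 35 were called in every alternative, 28 were lost in at least 1 and none changed sign; of the 107 uncalled changes, 30 were called in at least 1. With both arrays of high 3'/5' index left out, the count of members called was 3 instead of 6 in WldS at day 3 and 2 instead of 1 between the strains at day 14. With that index as a covariate, it was 2 in WldS at day 3, 5 instead of 3 in C57BL/6 from day 3 to day 7, 3 between the strains at day 14, and 1 instead of 0 for the interaction at day 14, and the Igfbp6 change in WldS at day 7 turned from 0.04 to -0.54. With the mean of all probe sets, it was 5 instead of 2 in WldS from day 7 to day 14, 2 between the strains at day 14, and 1 instead of 3 for the interaction at day 3. Median centring and the replicate block each gave 1 member instead of 2 between the strains at day 7 (967 and 908 of all genes, against 994). The block moved no other member count by over 1.5 times. The differences between replicates 1 and 2 correlated at r from -0.58 to 0.19 over 28 pairs of groups (median 0.006), with 5 above 0.1 and 7 below -0.1. As the signs varied, this does not decide whether the numbers pair the samples. Leaving out an array in turn gave 3 to 6 (6 with all arrays) in C57BL/6 at day 14, 2 to 4 (6) in WldS at day 3, 1 to 3 (3) and 2 to 3 (4) for the later C57BL/6 steps, 2 to 4 (5) and 1 to 3 (2) for the WldS steps, 0 to 4 (0) between the strains at day 0, 1 (2) at day 7 and 0 to 1 (1) at day 14, and 1 to 5 (3), 1 to 4 (1) and 0 to 1 (0) for the interactions at days 3, 7 and 14; a lone array was then taken to vary like the other groups. Calls over all genes also moved when an array was left out, mostly down. The cause of these shifts was not tested, beyond the smaller number of arrays. Centring and quantile normalization moved the median gene by at most 0.05 and 0.04.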
